A study of Mus musculus with 6 samples.

Results

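The elastic fibre genes described here are 10 genes that encode the structural parts of elastic fibres: elastin (Eln), the fibrillins (Fbn1, Fbn2), fibulins (Fbln2, Fbln5, Efemp2), microfibril-associated proteins (Mfap2, Mfap4, Mfap5) and one latent TGF-beta binding protein (Ltbp4). They were chosen by gene symbol as a family, on a proposal made with the treated and untreated values of these samples already known. Elastin had been seen to be much lower after treatment. The differences between the groups are therefore given for these 10 genes as a description, with no test of their own. All 10 were found among the 45706 genes of the table, each as 1 row, and all 10 passed the filter on low counts that left 14635 genes.

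RNA was sequenced from fibroblasts grown out of enzymatically digested lungs of wild-type mice, in a study of gene expression under DKK1. Control cultures were left untreated (3 samples), and treated cultures received 30 ng/ml of recombinant mouse DKK1 over 24 hours (3 samples). Both groups grew in the same serum-containing medium. The labels give neither the strain, age or sex of the mice nor whether the 3 samples of a group came from separate animals or cultures, so p-values measure only the spread between these samples, which may be technical. DKK1 (Dickkopf-1) is secreted and blocks LRP5 and LRP6, co-receptors for Wnt ligands, and so limits signalling through beta-catenin.

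Elastic fibres give the lung its recoil. Fibroblasts and smooth muscle cells secrete soluble elastin (tropoelastin), which fibulins carry onto a scaffold of fibrillin microfibrils, where enzymes of the lysyl oxidase family crosslink it. Fibrillin microfibrils also hold latent TGF-beta, through binding proteins of the LTBP family. The measurements are of RNA and say nothing of how much fibre was laid down.

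The libraries held from 22565917 to 34727102 counts. TMM scaling factors, which correct for differences in composition, lay between 0.9935 and 1.0057. At these depths each of the 10 genes had at least 123 counts in every library, against a floor of 3 counts read as signal. Samples of the 2 groups with the same replicate number tended to depart from their group means in the same direction. The correlation over genes was 0.34 to 0.5 in the 3 same-numbered pairs and -0.33 to 0.07 in pairs with different numbers. A fit with the replicate number as a block (the paired fit) is therefore given where it changes a call. All 6 fibroblast markers examined were above 1 CPM (counts per 1000000 counts of the library). Markers of mesothelium, epithelium, endothelium and leukocytes were also all above 1 CPM on average, and their summed levels were highest in replicate 3 of both groups. Summed epithelial markers, for example, stood at 121 CPM and 122 CPM in replicate 3 of control and DKK1 and at 37.6 to 46.3 CPM in the other 4 libraries.

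With DKK1, elastin RNA was at 0.504 times its control level in mean CPM, and that of fibulin-5 at 0.750 times. In both genes every DKK1 library was below every control library. The main microfibril scaffold gene, Fbn1, was at 0.951 times and the short fibulin gene Efemp2 at 0.991 times. Mfap2, at 1.12 times, was the single gene of the 10 with a higher mean. Genes were called at an adjusted p under 0.05 by edgeR's quasi-likelihood test over all 14635 genes. Of the 10, 2 were called lower (Eln and Fbln5) and 8 were not called, where 0.198% of all tested genes were called lower. In the paired fit 5 were called lower (Eln, Fbln5, Fbn2, Fbln2 and Ltbp4) and the other 5 were not called, where 4.46% of all tested genes were called lower. The median log2 fold change was -0.154 over the 10 genes and -0.001 over all tested genes, and 9 of the 10 values were below 0, against 50.4% of all tested genes. Since the family was proposed with this contrast known, nothing further is read from these counts.

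**Figure D1:**
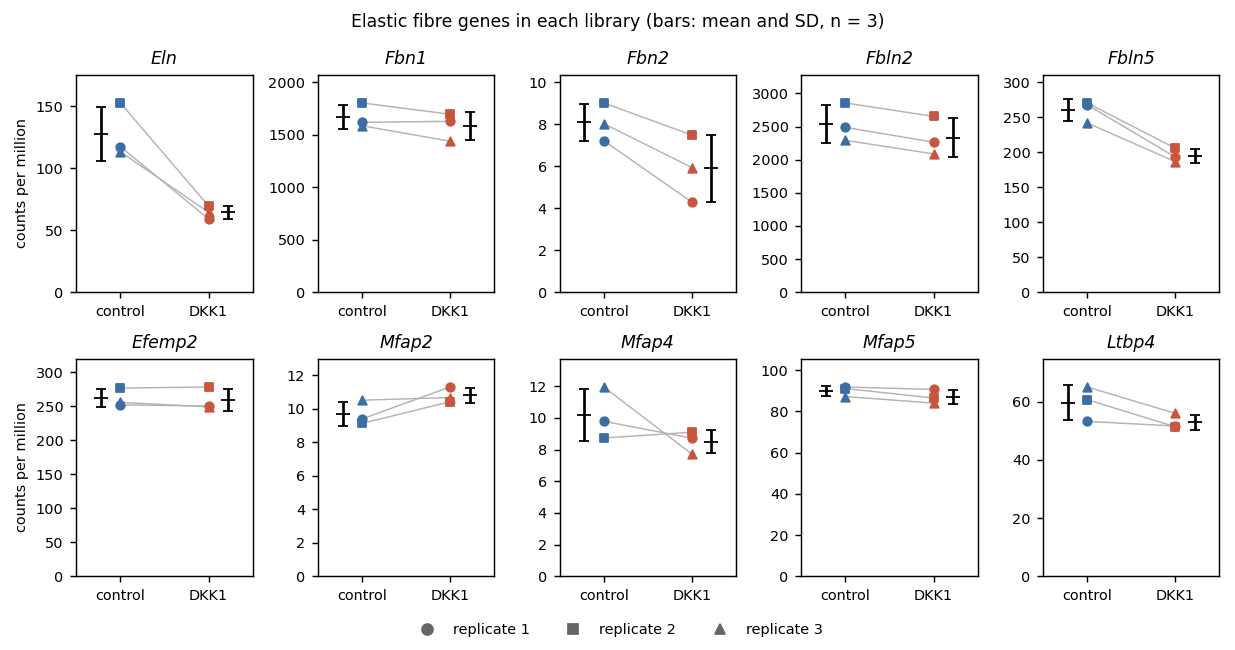
Level in CPM (vertical axes, each from 0) of the 10 elastic fibre genes in the 3 control and 3 DKK1 libraries. Points are libraries, lines join samples with the same replicate number, and black bars give the mean and SD. The groups are apart for Eln and Fbln5 and overlap for the other 8 genes.

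Elastin, the rubber-like core protein, is encoded by Eln (ENSMUSG00000029675), which lies on the minus strand of chromosome 5 at chr5:134702593-134747323 (GRCm38, GENCODE M21 annotation). The control libraries 1 to 3 held 118, 153 and 113 CPM, and the DKK1 libraries 59.2, 69.6 and 64.5 CPM. The lowest control library thus stood well above the highest DKK1 library, and control replicate 2 stood above the other 2 controls. Means were 128 ± 21.7 CPM in control and 64.5 ± 5.23 CPM with DKK1 (SD, n = 3 each). The libraries held 1488 to 4320 Eln counts. The log2 fold change was -0.996 (SE 0.115). Within the same-numbered pairs the log2 difference was -0.99, -1.13 and -0.81. Without DKK1 replicate 1 the call of Eln was lost at a log2 fold change of -0.938. Among the 29 genes called lower, Eln had the second most negative fold change. An antisense gene, Gm30003, overlaps the start of Eln on the opposite strand. It was listed at 0 counts in all 6 libraries.

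The fibrillins form the microfibrils on which elastin is deposited. Fbn1 (ENSMUSG00000027204, chr2:125300594-125507993, minus strand), the main fibrillin of adult tissue, held 1617, 1802 and 1585 CPM in control libraries 1 to 3. The DKK1 libraries held 1627, 1694 and 1437 CPM, with replicates 1 and 2 inside the range of the controls and replicate 3 below it. The means of 1668 ± 117 and 1586 ± 133 CPM (SD, n = 3 each) gave a log2 fold change of -0.078 (SE 0.071), which moved with single libraries: -0.009 without DKK1 replicate 3, -0.016 without control replicate 2, -0.120 without control replicate 3 and -0.132 without DKK1 replicate 2. Removing the GC and length trend gave -0.032, or -0.034 with the block. Replicate 3 was the lowest library of both groups, and the pairs differed by 0.0092, -0.089 and -0.14 on the log2 scale. Fbn1 was called in neither fit, and part of its expected counts was not whole in 5 of the 6 libraries. A gene on the opposite strand, Gm9913, overlaps its start and had 257 counts or fewer per library, against at least 33135 for Fbn1.

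Fbn2 (ENSMUSG00000024598), the fibrillin known mainly from development, was the least abundant of the 10 genes. It held 7.22, 9.02 and 8.03 CPM in control and 4.29, 7.49 and 5.94 CPM with DKK1, from 123 to 260 counts. DKK1 replicate 2 overlapped the control range and the other 2 DKK1 libraries lay below it. The log2 fold change was -0.46 (SE 0.19 without the block and 0.11 with it), and every pair was lower, by -0.27 to -0.75. The unpaired value was -0.269 without DKK1 replicate 1 and -0.682 without DKK1 replicate 2. It was called lower in the paired fit alone, and there the call was lost without replicate 1 or replicate 3 of both groups. Fbn2 made up 0.485 ± 0.0330 counts per 100 Fbn1 counts in control and 0.373 ± 0.0957 with DKK1 (SD, n = 3 each), so Fbn1 carried nearly all fibrillin counts in both groups.

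Among the fibulins, fibulin-5 (Fbln5, ENSMUSG00000021186, chr12:101746565-101819055, minus strand) binds tropoelastin and integrins and brings elastin onto microfibrils. Control libraries held 268, 271 and 242 CPM and DKK1 libraries 193, 206 and 187 CPM. The lowest control value was above the highest DKK1 value, and the libraries of each group lay close together. Means of 260 ± 15.8 and 195 ± 9.80 CPM (SD, n = 3 each) gave a log2 fold change of -0.42 (SE 0.057), with pair differences of -0.47, -0.39 and -0.38. Its call was lost without control replicate 1 (-0.398), control replicate 2 (-0.388) or DKK1 replicate 1 (-0.413). Fbln5 ranked 9 of the 29 genes called lower by fold change, and no annotated gene overlaps it.

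Fibulin-4, the product of Efemp2 (ENSMUSG00000024909, chr19:5473954-5482517, plus strand), is the close relative that helps lysyl oxidase reach elastin. Its control libraries held 252, 277 and 256 CPM and its DKK1 libraries 250, 278 and 249 CPM. Each DKK1 library lay close to its same-numbered control, with log2 pair differences of -0.010, 0.0085 and -0.038. The log2 fold change was -0.018 (SE 0.057, or 0.022 in the paired fit), and it was above 0 without control replicate 2, DKK1 replicate 1 or DKK1 replicate 3 (up to 0.027). Control cells held 99.7 ± 6.05 Fbln5 counts per 100 Efemp2 counts, and DKK1-treated cells 75.4 ± 1.64 (SD, n = 3 each). The lowest control ratio was 94.7 and the highest DKK1 ratio 77.2, so the 2 short fibulin genes changed unequally. Mus81 overlaps Efemp2 on the opposite strand with 502 to 727 counts, against at least 5686 for Efemp2, so part of the Efemp2 level is uncertain where strand was not used.

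The 250 bases before the outer transcription starts of these 2 related genes are shown, from RefSeq (GRCm38.p6), on the strand of the gene from 5′ to 3′. Their part in the unequal change of the 2 genes was not tested. Capitals mark the GC box GGGCGG, the motif of Sp1-type factors, on either strand. The Fbln5 window is chr12:101819120-101819369 (minus strand) and the Efemp2 window chr19:5473696-5473945 (plus strand).
Fbln5: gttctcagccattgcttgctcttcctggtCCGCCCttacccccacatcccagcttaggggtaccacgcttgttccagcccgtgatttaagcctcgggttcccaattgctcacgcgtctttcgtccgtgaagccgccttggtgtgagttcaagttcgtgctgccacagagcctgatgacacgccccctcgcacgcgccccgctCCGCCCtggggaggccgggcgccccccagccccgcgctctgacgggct
Efemp2: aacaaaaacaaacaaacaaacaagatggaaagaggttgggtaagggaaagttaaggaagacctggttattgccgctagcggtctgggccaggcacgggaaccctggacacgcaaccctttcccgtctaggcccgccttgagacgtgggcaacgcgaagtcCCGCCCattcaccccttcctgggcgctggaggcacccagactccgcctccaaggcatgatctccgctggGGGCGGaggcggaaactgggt

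Both windows held 2 GC boxes, and GC made up 65.2% of the Fbln5 window and 59.2% of the Efemp2 window, against a median of 52.4% over all 32851 promoters of the reference. A GC box was present in 32.7% of those promoters. Neither window held a TATA box (TATAAA, in 12.4% of promoters), an AP-1 motif (TGANTCA, in 6.7%), a C/EBP motif (TTGCNNAA, in 9.6%) or a TCF/LEF motif (CTTTGA, in 13.8%); each was searched on both strands with overlapping matches counted. Promoter windows were examined for 6 of the 10 genes: Fbn1, Mfap2, Fbln2, Ltbp4, Fbln5 and Efemp2. Windows on chromosome 18, which holds Fbn2, were left out of this search. Of their 12 windows, a TCF/LEF match lay in 1 window of Fbln2 and 1 at the inner start of Fbln5, and a C/EBP match in 1 window of Mfap2. These are matches of letters only and show no binding.

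Fibulin-2 (Fbln2, ENSMUSG00000064080, chr6:91212455-91272540, plus strand) bridges elastin, fibrillin and basement membrane proteins. It held 2487, 2856 and 2292 CPM in control and 2264, 2652 and 2087 CPM with DKK1. The ranges of the groups overlapped widely, while each DKK1 library was below its same-numbered control by a similar step. The pair differences were -0.14, -0.11 and -0.13 on the log2 scale. In both fits the log2 fold change was -0.13, with an SE of 0.10 without the block and of 0.016 with it. Leaving out 1 library moved the unpaired value to -0.036 (control replicate 2), -0.053 (DKK1 replicate 3), -0.206 (control replicate 3) or -0.236 (DKK1 replicate 2). Fbln2 was called lower in the paired fit alone.

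The microfibril-associated proteins decorate the fibrillin scaffold. Mfap5 (ENSMUSG00000030116, chr6:122505845-122529290, plus strand), which encodes the glycoprotein MAGP-2, held 91.8, 91.0 and 87.1 CPM in control and 90.6, 86.4 and 84.0 CPM with DKK1. Its libraries varied least of the 10 genes, with a coefficient of variation of 2.76% in control. The log2 fold change was -0.054 (SE 0.044, or 0.030 in the paired fit), not called in either fit, although each pair was lower, by -0.019 to -0.075. The value was -0.027 without DKK1 replicate 3, -0.083 without control replicate 3 and -0.085 without DKK1 replicate 1, and -0.082 with the GC and length trend removed.

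Mfap2 (ENSMUSG00000060572, chr4:141010418-141015984, plus strand) encodes MAGP-1, which binds fibrillin and tropoelastin. It held 9.40, 9.13 and 10.5 CPM in control and 11.3, 10.4 and 10.7 CPM with DKK1, from 212 to 362 counts. One control library lay within the DKK1 range. Each pair was higher, by 0.022 to 0.27 on the log2 scale, and the log2 fold change of 0.15 (SE 0.085) was not called in either fit.

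Mfap4 (ENSMUSG00000042436, chr11:61485431-61488900, plus strand) encodes a fibrinogen-domain protein that binds elastin and fibrillin. Its 9.79, 8.74 and 11.96 CPM in control and 8.72, 9.10 and 7.72 CPM with DKK1 overlapped, and the pairs disagreed in sign, from -0.63 in replicate 3 to 0.058 in replicate 2. Its log2 fold change of -0.25 (SE 0.13) was not called in either fit. It moved to -0.126 without control replicate 3, and the paired value to -0.397 without replicate 2 or -0.055 without replicate 3 of both groups. The libraries held 178 to 316 Mfap4 counts. The gene Mapk7 overlaps Mfap4 on the opposite strand and had 827 to 1235 counts; since the counting's use of strand is not known, reads of the 2 genes may not be told apart and the level of Mfap4 is uncertain.

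Ltbp4 (ENSMUSG00000040488, chr7:27305136-27337692, minus strand) encodes the latent TGF-beta binding protein that also binds fibulin-5 and guides elastin assembly. Control libraries held 53.3, 60.7 and 65.1 CPM and DKK1 libraries 51.7, 51.4 and 56.0 CPM. DKK1 replicate 3 lay above the lowest control library, so the groups overlapped, and each pair was lower, by -0.044 to -0.24. The log2 fold change was -0.18 (SE 0.071 without the block, 0.042 with it), called lower in the paired fit alone, and there the call was lost without replicate 2 or replicate 3 of both groups.

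**Figure D2:**
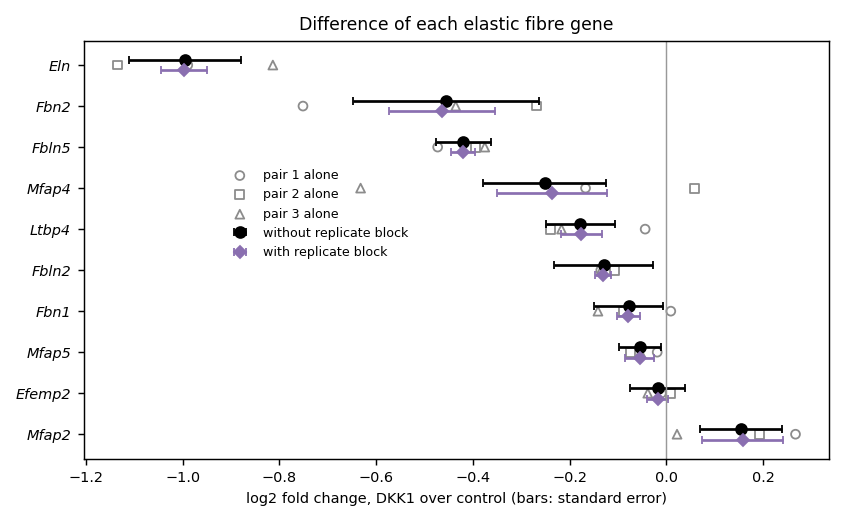
Log2 fold change of DKK1 over control (horizontal axis) for each elastic fibre gene, without and with the replicate block (filled points, bars are standard errors), and the difference within each same-numbered pair (open points). Eln lies near -1 in every pair, and the bars of Fbln2 shrink most visibly with the block.

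Across the same-numbered pairs, 6 of the 10 genes (Eln, Fbn2, Fbln2, Fbln5, Mfap5 and Ltbp4) were lower with DKK1 in all 3, against 19.5% of all tested genes. Every DKK1 library was below every control library in 2 of the 10, against 7.14% of all tested genes. Replicates also differed in a way the treatment does not describe: replicate 2 was the highest library in both groups for 6 genes (Eln, Fbn1, Fbn2, Fbln2, Fbln5 and Efemp2), against 14.2% of all tested genes. Replicate 2 was also the deepest library of each group, at 28268124 and 34727102 counts; its part in these levels was not tested. The coefficient of variation among controls was 16.9% for Eln and 16.2% for Mfap4, against a median of 4.49% over tested genes above 5 CPM. The 10 genes together took 0.504% ± 0.0447 of all counts in control and 0.461% ± 0.0440 with DKK1 (SD, n = 3 each), and these ranges overlapped. Each same-numbered pair was lower with DKK1: 0.4912% to 0.456%, 0.5537% to 0.5065% and 0.4671% to 0.4189% in replicates 1 to 3.

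Levels were compared between genes per kilobase of exon, using the union of the annotated exons of each gene. In control, Fbln2 was highest at 400 ± 45.0 CPM per kilobase, followed by Fbn1 at 138 ± 9.68, Efemp2 at 69.0 ± 3.50, Fbln5 at 37.7 ± 2.28, Mfap5 at 25.1 ± 0.693 and Eln at 15.8 ± 2.68 (SD, n = 3). Below these came Ltbp4 at 9.24 ± 0.927, Mfap2 at 7.99 ± 0.604, Mfap4 at 5.29 ± 0.856 and Fbn2 at 0.612 ± 0.0681 CPM per kilobase. Neighbours in this order did not overlap in any control library except Ltbp4 and Mfap2. With DKK1, Eln stood at 7.96 ± 0.645 CPM per kilobase and moved from place 6 to place 8, where its libraries overlapped those of Ltbp4. Exon length matters most for Eln, whose exon union of 8098 bases is far longer than its longest transcript of 3853 bases. With the longest transcripts, Eln stood at 33.2 ± 5.63 CPM per kilobase in control and 16.7 ± 1.36 with DKK1, in place 6 in both groups.

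**Figure D3:**
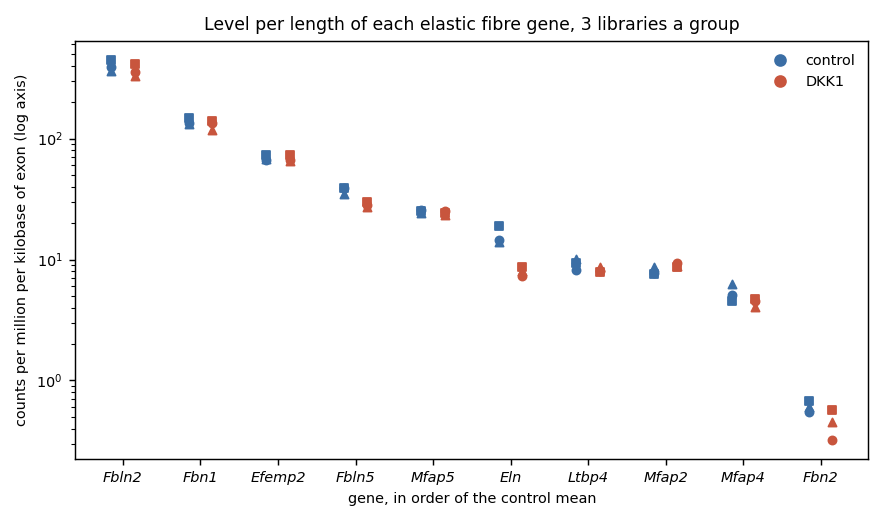
Level of each elastic fibre gene in CPM per kilobase of exon (vertical log axis), with genes in the order of the control mean and 3 libraries per group. Control means span from about 0.612 for Fbn2 to 400 for Fbln2. With DKK1 the libraries of Eln overlap those of Ltbp4 when the exon union is used as the length.

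Elastin counts were also set against those of its scaffold within each library. Control libraries 1 to 3 held 7.27, 8.48 and 7.16 Eln counts per 100 Fbn1 counts, and DKK1 libraries 3.64, 4.11 and 4.49. The mean ratio was 7.63 ± 0.734 in control and 4.08 ± 0.428 with DKK1 (SD, n = 3 each), and every DKK1 ratio was below every control ratio. Eln per 100 Fbln5 counts went from 49.0 ± 6.60 to 33.0 ± 2.09.

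The genes with the profile most like that of Eln were sought among the 13021 tested genes averaging 1 CPM or more, by the root mean square difference of mean-centred log2(CPM + 0.5) over the 6 libraries. For these differences CPM was scaled by the TMM factors, while the CPM levels given below use library totals. The 6 closest were Ctnna2 (0.106), Rab3b (0.134), Nkain4 (0.205), Kirrel3 (0.217), Gm17396 (0.221) and Fbxl22 (0.225), where a flat profile would differ from Eln by 0.513. Ctnna2, which encodes an alpha-catenin of neurons, went from 3.79 ± 0.547 to 1.99 ± 0.205 CPM and Rab3b, a small GTPase of secretory vesicles, from 8.49 ± 1.04 to 4.84 ± 0.375 CPM (SD, n = 3 each). Of the 6, Rab3b was called lower without the block, and all 6 were with it; since they were picked for this pattern, that is a description. None of the 6 encodes a protein of the elastic fibre, and none exceeded 10 CPM in any library. Among the other 9 elastic fibre genes the closest were Fbln5, at place 21 with a difference of 0.305, and Fbn2, at place 27 with 0.311.

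The rest of the elastic fibre pathway was examined with 5 lists by role, which leave out the 10 genes above. Of 76 listed genes 74 were in the table and 63 were tested; 4 were called, 2 higher (Slpi and Timp1) and 2 lower (Timp3 and Tgfb3), where 0.697% of all tested genes were called higher, 0.198% lower and 0.895% in either direction. In the paired fit 24 were called, 9 higher and 15 lower, where 4.96% of all tested genes were called higher, 4.46% lower and 9.42% in either direction. Of the 20 called there alone, 10 were also called when any 1 replicate number was left out of both groups, and the other 10 lost their call without replicate 2 (Lox, Loxl1, Emilin1, Ltbp2, Adamtsl3, Adamtsl5, Mmp14, Cst3, Tgfb1 and Tgfb2). Without the block, DESeq2 called 6 pathway genes (the same 4, Loxl3 and Cebpb) and the fit with no low-count filter 6 (the same 4, Mmp12 and Cebpb). Of the same 20, leaving out 1 library moved the unpaired log2 fold change of 14 by more than 1.5 times or changed its sign (Lox, Loxl1, Hmcn1, Emilin1, Ltbp2, Adamtsl3, Adamtsl5, Mmp9, Mmp12, Ctss, Timp2, Tgfb1, Igf1 and Smad3), and leaving out 1 replicate number moved the paired value of 1 (Adamtsl5) that far. The median log2 fold change over the 63 genes was 0.002. Calls rest on edgeR's quasi-likelihood test with Benjamini-Hochberg adjustment over all genes.

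**Figure D4:**
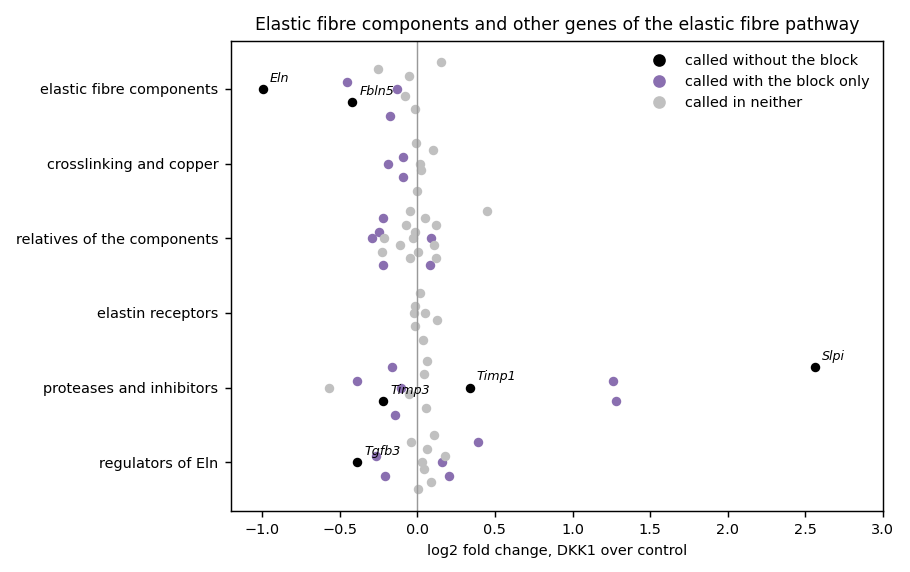
Log2 fold change of DKK1 over control (horizontal axis) for the 10 elastic fibre components and the tested genes of 5 lists of the pathway, 1 point per gene; vertical spread within a list carries no value. Black points were called without the replicate block (Eln, Fbln5, Slpi, Timp1, Timp3, Tgfb3) and violet points with the block alone.

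The crosslinking enzymes and copper carriers held 8 tested genes, of which the unpaired edgeR fit called 0, DESeq2 1 and limma-voom 0; 2 reached an unadjusted p under 0.05 in edgeR. In the paired fit 3 were called lower, where 4.46% of all tested genes were. Lox, the lysyl oxidase that crosslinks elastin and collagen, stood at 1187 ± 125 CPM in control and 1116 ± 109 CPM with DKK1 (SD, n = 3 each). Its log2 fold change was -0.094 (edgeR adjusted p = 0.79, or 0.00546 with the block). Loxl1, the family member most tied to elastin, stood at -0.093 on the log2 scale (adjusted p = 0.623, or 0.0055 with the block). Leaving out control replicate 3 or control replicate 2 moved the unpaired value of Lox to -0.178 or -0.018 and that of Loxl1 to -0.140 or -0.051. Both paired calls were lost without replicate 2 of both groups. Loxl3 fell by 0.19 in the paired fit (edgeR adjusted p = 0.000317, against 0.15 without the block). The median of the list was -0.004, and the other 5 genes (Loxl2, Loxl4, Atp7a, Atox1 and Slc31a1) were called in neither fit.

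Relatives of the components (other fibulins, EMILINs, LTBPs and ADAMTS-like proteins) held 20 tested genes. The unpaired edgeR fit, DESeq2 and limma-voom called 0 of them. The paired edgeR fit called 6, where it called 9.42% of all tested genes in either direction. At an unadjusted p under 0.05 the unpaired edgeR fit held 1. The paired fit called 2 higher: Emilin1, an elastin-associated glycoprotein, at 0.0845 on the log2 scale (edgeR adjusted p = 0.0296, against 0.804 without the block), and Ltbp2, with 0.081 (0.00926, against 0.666). The paired call of Ltbp2 was lost without replicate 2 of both groups, and its unpaired value ran from 0.042 without control replicate 3 to 0.128 without DKK1 replicate 3. It called 4 lower, Hmcn1 (-0.29), Adamtsl3 (-0.25), Adamtsl5 (-0.22) and Adamts10 (-0.22), a protease that binds fibrillin-1. The calls of Emilin1, Adamtsl3 and Adamtsl5 held in 1 of the 3 paired fits that leave out a replicate number, and Adamtsl3 reached 0.069 when control replicate 2 was left out of the unpaired fit. Fbln1 stood at 42.9 ± 2.22 and 46.7 ± 2.67 CPM, Efemp1 at 39.7 ± 5.08 and 38.7 ± 4.64 CPM and Ltbp1 at 534 ± 50.9 and 530 ± 41.8 CPM in control and DKK1 (SD, n = 3 each). These 3 genes were called in neither fit. The list's median was -0.036.

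Elastin receptor genes held 7 tested genes, of which 0 were called without or with the block. They were the parts of the elastin receptor complex Glb1, Ctsa and Neu1, the integrin genes Itgav, Itgb3 and Itgb5, and Lgals3. The smallest edgeR adjusted p was 0.846 without the block and 0.3 with it, and 0 of the 7 had an unadjusted p under 0.05 in either fit. DESeq2 and limma-voom also called 0.

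Among 14 tested genes for elastin-degrading proteases and their inhibitors, 3 were called without the block and 9 with it. Over all tested genes 0.895% were called in either direction without the block and 9.42% with it. Slpi kept its call without any 1 of the 6 libraries. This inhibitor of neutrophil elastase was at 2.16 ± 0.921 CPM in control and rose to 12.7 ± 1.08 CPM (SD, n = 3 each), by 2.56 on the log2 scale (edgeR adjusted p = 0.00237). The metalloproteinase inhibitor gene Timp1 rose by 0.34 (adjusted p = 0.0145) and Timp3 fell by 0.22 on the log2 scale (adjusted p = 0.02). Both calls were lost without control replicate 1, control replicate 2 or DKK1 replicate 2, and that of Timp3 also without DKK1 replicate 1. In the paired fit the elastase genes Mmp12 and Mmp9 rose, with log2 fold changes of 1.33 (edgeR adjusted p = 7.55e-06, against 0.288 without the block) and 1.33 (4.93e-06, against 0.481). Mmp12 stood at 50.7 ± 33.3 CPM in control and 124 ± 47.6 CPM with DKK1, so its libraries varied widely within a group. In the unpaired fit, leaving out DKK1 replicate 3 or control replicate 3 moved the log2 fold change of Mmp12 to 0.934 or 1.926, that of Mmp9 to 0.690 or 2.192 and that of Ctss to -0.761 or -0.027. With the block and without 1 replicate number, Mmp12 ranged from 1.094 to 1.566, Mmp9 from 1.197 to 1.614 and Ctss from -0.414 to -0.333, and each was called every time. The paired fit also called lower Mmp14 (-0.11), Ctss (-0.38), Timp2 (-0.16) and Cst3 (-0.14); the calls of Mmp14 and Cst3 were lost without replicate 2 of both groups. Mmp12 and Ctss are macrophage genes as well. The sum of the leukocyte markers ranged from 384 to 774 CPM in control and from 411 to 792 CPM with DKK1, with all 5 markers above 1 CPM and none at 0, and was higher with DKK1 in all 3 pairs. Lyz2 made up most of that sum, at 340 to 722 CPM, and was called in neither fit. Of the other leukocyte markers, the paired fit called Adgre1 higher (log2 fold change 0.54, edgeR adjusted p = 0.00179, against 0.665 without the block) and Csf1r lower (-0.25, adjusted p = 0.0364, against 0.756). Without DKK1 replicate 3 or control replicate 3 the unpaired value of Adgre1 was 0.148 or 0.913 and that of Csf1r -0.455 or 0.048; the paired call of Csf1r was lost without replicate 2 or replicate 3 of both groups. Ptprc and Cd68 were not called in either fit. These markers' part in the values of Mmp12 and Ctss was not tested. RNA of neutrophil elastase (Elane) was listed at 0 in all 6 libraries.

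Among 14 tested genes reported to regulate Eln transcription, 1 was called without the block. Over all tested genes 0.895% were called in either direction without the block and 9.42% with it. Tgfb3 was at 362 ± 28.6 CPM in control and fell to 277 ± 16.2 CPM (SD, n = 3 each), by 0.39 on the log2 scale (edgeR adjusted p = 0.0285). Its call was lost without control replicate 1, control replicate 3, DKK1 replicate 1 or DKK1 replicate 2, at -0.452 to -0.350 over the 6 fits that leave out 1 library. Members of the TGF-beta family are known to raise elastin expression. In the paired fit Tgfb2 (-0.21) and Igf1 (-0.27) were lower too, with adjusted p-values of 0.00991 and 6.34e-05, while Tgfb1 (0.16), Smad3 (0.20) and Cebpb (0.40) were higher, with 0.00598, 0.000182 and 0.000297. The paired calls of Tgfb1 and Tgfb2 were lost without replicate 2 of both groups, and the unpaired value of Tgfb1 ran from 0.080 without control replicate 2 to 0.236 without DKK1 replicate 2. Cebpb encodes a factor that has been tied to repression of Eln; it stood at 129 ± 22.3 and 169 ± 7.89 CPM with no overlap between the groups (edgeR adjusted p = 0.208 without the block). Cebpb was also called in 2 unpaired alternatives, DESeq2 and the fit with no low-count filter. Sp1, Sp3, Rela, Fosl1, Jun, Fgf2, Hbegf and Tnf were called in neither fit.

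Elastin is also made by smooth muscle cells and myofibroblasts, and markers of these cells were examined beside it. The summed level of the 6 markers (Acta2, Tagln, Myh11, Cnn1, Des, Myocd) was 9099, 8973 and 10030 CPM in control and 7678, 7785 and 8968 CPM with DKK1. The highest DKK1 sum was just below the lowest control sum, and all 3 pairs were lower. Of these markers 1 was called lower without the block (Myh11), where 0.198% of all tested genes were, and 6 with it, where 4.46% were; none was at 0. Myocd lost its call in the paired fit without any 1 replicate number. The 4 pericyte markers summed to 48.3 to 63.1 CPM in control and 48.8 to 62.1 CPM with DKK1, and the paired fit called Cspg4 lower (-0.46) and Kcnj8 higher (0.65), while Rgs5 and Notch3 were called in neither fit. Leaving out 1 library moved the unpaired value of Cspg4 between -0.642 (without DKK1 replicate 2) and -0.223 (without control replicate 2), that of Kcnj8 between 0.426 (without control replicate 1) and 0.943 (without control replicate 3) and that of Des between -0.724 (without DKK1 replicate 1) and -0.122 (without control replicate 1). In bulk RNA, fewer cells of a type and less RNA per cell cannot be told apart, and the part of these cell types in the levels of Eln and Fbln5 was not tested. The 6 fibroblast markers summed to 10160 to 11630 CPM in control and 9575 to 11060 CPM with DKK1, ranges that overlapped. Their sum was lower in all 3 pairs, as were Col1a1 and Col1a2 singly, while Pdgfra and Dcn were lower in 0 of 3. Of the 6, 4 were called in the paired fit alone: Col1a1 (-0.10) and Col1a2 (-0.13) lower, Pdgfra (0.27) and Dcn (0.62) higher. The paired fit called 9.42% of all tested genes in either direction. The call of Col1a1 was lost without replicate 2 of both groups, and leaving out 1 library moved the unpaired values of Col1a1, Col1a2 and Pdgfra by more than 1.5 times (-0.157 to -0.054, -0.205 to -0.044 and 0.155 to 0.387).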

How the data were processed

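The deposited table holds RSEM expected counts per gene, 1 column for each of 6 samples, not scaled by the authors; the submitters' processing notes name STAR, RSEM, edgeR 4.2.1 and the builds GRCm38 and mm10. The annotation release and strandedness are not given in the sources used here, so genes overlapping on opposite strands are uncertain. Symbols were found for 98.8% of identifiers; exon lengths, GC content and coordinates came from GENCODE M21. Expected counts were rounded, then fitted with edgeR 4.0.16 under R 4.3.3 (filterByExpr, minimum count 10, TMM, quasi-likelihood test, two-sided, Benjamini-Hochberg over all genes, called under 0.05), with the group as the only term. Standard errors are the log2 fold change over the square root of F. CPM uses the library total, except in the search for profiles like Eln and the correlations between replicates, which used TMM-scaled CPM. The floor of 3 counts is 0.0864 to 0.133 CPM and covers counting error only.

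The replicate numbers come from the sample titles. Same-numbered samples tended to deviate together (correlations of 0.34 to 0.5 over 14635 genes, against -0.33 to 0.07 between different numbers). The blocked fit is therefore given where it changes a call. The alternatives were DESeq2 1.42.0 or its size factors, library totals, other count filters, limma-voom (limma 3.58.1), unrounded counts, removal of the GC and length trend, the block, leaving out each sample and, chosen after seeing the data, the block without each replicate number. The scripts were tested on simulated data. The 10 genes, the lists and the tests were chosen with earlier results of these data known. Genes named beyond the 10 are list genes called in either fit, 7 chosen by name (Lox, Loxl1, Emilin1, Fbln1, Efemp1, Ltbp1, Ltbp2) and the 6 profiles most like Eln; others were named after their values were seen. Of the list symbols 2 were not in the table, 1 of them an older name of a listed gene.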

Additional observations from a re-analysis of the deposited data

How the results depend on the processing

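Eln and Fbln5 were called lower in all 11 alternatives that used every library, with log2 fold changes of -0.997 to -0.972 and -0.421 to -0.407. The replicate block moved the calls most: 5 of the 10 genes against 2, 24 of the other pathway genes against 4, and 1379 over all genes (726 higher, 653 lower) against 131 (102 higher, 29 lower). With the block, Fbn2 (-0.464), Fbln2 (-0.131) and Ltbp4 (-0.176) were also called. With the block plus removal of the GC and length trend, 5 of the 10 genes (Fbn2 -0.416, Fbln2 -0.102, Ltbp4 -0.129), 23 pathway genes and 1370 genes in all were called. DESeq2 called 289 genes, and with the block 558, with 19 of the pathway and Fbln2 (-0.132) but not Fbn2 or Ltbp4. Without a low-count filter 329 were called. The causes were not tested. No other alternative with every library changed a call or sign among the 10 genes.

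Leaving out 1 sample gave 36 to 139 calls, 1 to 4 in the pathway and 0 to 2 of the 10 genes. Eln ranged from -1.082 to -0.843 and lost its call without DKK1 replicate 1; Fbln5 ranged from -0.475 to -0.386 and lost it without control replicate 1, control replicate 2 or DKK1 replicate 1. Efemp2 ranged from -0.076 to 0.027, above 0 without control replicate 2, DKK1 replicate 1 or DKK1 replicate 3. In the paired fit, leaving out 1 replicate number of both groups left 3 to 5 of the 10 genes called; Eln, Fbln5 and Fbln2 (-0.125 without replicate 1, -0.139 without 2, -0.128 without 3) were called each time, Fbn2 without replicate 2 (-0.592), and Ltbp4 (-0.234) and Fbn1 (-0.12) without replicate 1. Using the longest transcript moved the control level per kilobase of 8 of the 10 genes by more than 1 SD. All 6 profiles most like Eln were the same under library totals.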
